A study of Mus musculus with 20 samples.

Results

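The regions described here are 274 clustered domains of H3K27ac in mTOR-deficient mouse hematopoietic stem cells (HSC), built in the manner used to find super-enhancers. H3K27ac peaks of the KO library on chromosomes 1 to 19 and X were joined wherever the gap between neighbours was at most 12.5 kb, and joined regions of 4 or more peaks were kept. Of 15274 joined regions, 274 met this rule, and they held 1266 of the 20036 KO peaks. The domains were chosen by measured values, the positions of the KO peaks, so the number, length and KO marking of the domains are given as a description without a test. The name is one of construction, since super-enhancers are ranked by read signal and these lists carry peak positions and a score of unstated scale, with no read signal. All mice were adult and had received poly(I:C), which induces the interferon-responsive Mx1 promoter. WT mice were Mx1-Cre-/-;mTORflox/flox, KO mice were Mx1-Cre+/-;mTORflox/flox, and KO MycHet mice were Mx1-Cre+/-;mTORflox/flox;c-Myc+/flox. Mx1-Cre is active in many tissues and not only in HSC, and poly(I:C) reached WT mice as well. Each ChIP-seq target (H3K27ac, H3K4me3, MYC) had 1 library per genotype for WT and KO, while ATAC-seq had 2 libraries of each of the 3 genotypes from 50000 cells each. RNA-seq of 4 WT and 4 KO samples was not analysed here.

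H3K27ac is an acetyl mark laid down by CBP and p300 at active promoters and enhancers, and BRD-family proteins read it. Enhancers that lie close together and carry much of this mark are often found near genes that define a cell type or respond quickly to signals, and several promoters in a row can give the same picture in a gene-dense stretch. H3K4me3 marks active promoters, ATAC-seq peaks mark DNA open to a transposase, and MYC is a transcription factor that binds E-boxes and open promoters. The kinase mTOR drives protein synthesis and growth downstream of PI3K signalling.

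Promoter sequences were looked up for the genes in the domains, and 499 of the 606 protein-coding genes that overlapped a domain had one. The 8 printed here are the 250 bases upstream of the RefSeq start (GRCm38.p6), written 5′ to 3′ on the strand of the gene. The first pair belongs to Dusp1, of the feedback signalling list, and Btg2, of the immediate early list. Transcription of immediate early genes rises within minutes of a signal. The capitals mark the cyclic AMP response element (CRE), spelled TGACGTCA. Dusp1 lay at chr17:26508473-26508722 on the minus strand and Btg2 at chr1:134079156-134079405 on the minus strand.
Dusp1: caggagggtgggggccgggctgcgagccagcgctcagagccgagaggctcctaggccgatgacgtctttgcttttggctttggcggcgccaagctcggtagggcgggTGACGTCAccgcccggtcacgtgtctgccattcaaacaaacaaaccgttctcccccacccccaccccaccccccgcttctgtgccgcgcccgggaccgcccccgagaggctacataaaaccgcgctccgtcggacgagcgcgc
Btg2: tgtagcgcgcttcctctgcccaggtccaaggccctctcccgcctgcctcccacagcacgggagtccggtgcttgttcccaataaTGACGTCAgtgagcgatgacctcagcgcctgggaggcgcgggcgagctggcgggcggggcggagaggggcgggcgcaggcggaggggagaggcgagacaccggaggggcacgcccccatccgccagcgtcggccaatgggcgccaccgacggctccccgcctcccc
The CRE began 143 bases before the start of Dusp1 and 166 before that of Btg2. The promoters of Fos, Fosb, Nr4a1 and Cish were searched likewise and held no exact match to TGACGTCA. Variant spellings of the CRE were not searched, so CRE-like sites in these promoters are not excluded. The Dusp1 stretch also holds an E-box, left in lower case. The next pair belongs to histone H2B genes of the histone domain that ranked second by length, and the capitals mark the octamer ATTTGCAT. H2bc6 lay at chr13:23585971-23586220 on the minus strand and H2bc8 at chr13:23571150-23571399 on the plus strand.
H2bc6: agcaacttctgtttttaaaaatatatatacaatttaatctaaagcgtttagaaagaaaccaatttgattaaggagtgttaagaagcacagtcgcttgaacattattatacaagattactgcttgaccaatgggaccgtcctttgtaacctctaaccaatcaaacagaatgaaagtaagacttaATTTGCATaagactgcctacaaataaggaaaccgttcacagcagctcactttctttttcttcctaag
H2bc8: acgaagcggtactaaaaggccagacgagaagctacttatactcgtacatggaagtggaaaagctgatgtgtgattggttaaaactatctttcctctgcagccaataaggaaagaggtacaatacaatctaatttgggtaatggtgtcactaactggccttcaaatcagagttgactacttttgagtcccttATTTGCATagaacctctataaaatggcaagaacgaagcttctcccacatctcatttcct
The octamer stood 67 and 59 bases before these starts. The third pair had the highest KO MYC scores among the 8 domain promoters with an E-box and a MYC peak in both genotypes, and the capitals mark the E-box CACGTG. Wbp2 lay at chr11:116086996-116087245 on the minus strand and Ccdc9 at chr7:16286781-16287030 on the minus strand.
Wbp2: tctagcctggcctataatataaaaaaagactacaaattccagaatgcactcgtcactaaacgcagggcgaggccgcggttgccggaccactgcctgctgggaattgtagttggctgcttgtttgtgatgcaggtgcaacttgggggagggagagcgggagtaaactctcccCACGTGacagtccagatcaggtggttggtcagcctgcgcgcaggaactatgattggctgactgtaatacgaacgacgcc
Ccdc9: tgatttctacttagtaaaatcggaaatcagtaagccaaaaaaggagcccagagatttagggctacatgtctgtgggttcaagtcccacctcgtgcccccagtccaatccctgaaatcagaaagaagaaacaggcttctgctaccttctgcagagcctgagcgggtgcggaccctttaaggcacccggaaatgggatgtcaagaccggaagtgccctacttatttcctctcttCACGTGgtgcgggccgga
The last pair shows the promoters of tandem gene copies, with no base in capitals. The Ifnz stretch, at chr4:88781881-88782130 on the plus strand, was identical to those of Gm13276 and Gm13277. The Gm13272 stretch, at chr4:88779600-88779849 on the plus strand, was identical to those of Gm13285 and Gm13287.
Ifnz: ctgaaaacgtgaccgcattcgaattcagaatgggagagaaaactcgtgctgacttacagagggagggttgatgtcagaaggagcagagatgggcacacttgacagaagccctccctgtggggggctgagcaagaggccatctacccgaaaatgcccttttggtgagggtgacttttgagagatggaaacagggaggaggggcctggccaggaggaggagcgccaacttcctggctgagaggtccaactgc
Gm13272: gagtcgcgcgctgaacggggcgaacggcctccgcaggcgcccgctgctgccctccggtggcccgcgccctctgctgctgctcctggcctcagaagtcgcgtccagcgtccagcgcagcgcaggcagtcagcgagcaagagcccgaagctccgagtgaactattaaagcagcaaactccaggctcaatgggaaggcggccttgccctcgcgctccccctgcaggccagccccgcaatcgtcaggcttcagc

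Across the 465 RefSeq promoters that lay on an H3K27ac peak of a domain, most motifs were about as common as at other acetylated promoters, while the octamer and the CArG box were more frequent. Each was searched on both strands of the 250 upstream bases. The ETS motif, spelled CCGGAAG, was in 20.2% of domain promoters, in 18.1% of 7009 promoters on KO H3K27ac peaks outside domains, and in 9.08% of all 21045 promoters of protein-coding genes. The E-box was in 9.89%, 9.06% and 6.70% of these. The motif of GATA factors, spelled AGATAA, was in 5.81%, 5.15% and 8.84% of the promoters. The motif of RUNX factors, spelled TGTGGT, was in 11.2%, 10.2% and 12.2% of the promoters. The motif of PU.1, spelled GAGGAAGT, was in 1.94%, 2.87% and 2.25% of them. The CRE stood in 3.01%, 3.81% and 1.94%, the octamer in 3.44%, 1.07% and 1.59%, and the CArG box, the site of serum response factor, in 2.15%, 0.856% and 1.40%. Only 16 domain promoters held the octamer and 10 the CArG box, and histone promoters supplied part of both. Of 10 H2B promoters on domain peaks, 4 held the octamer and 2 the CArG box. Of 22 H2A, H3 and H4 promoters, 3 held the octamer and 1 the CArG box. The octamer, CRE and CArG box were chosen after the genes in the domains were known. A match is a string of letters and no measure of binding.

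The lists differed in ways that bear on every comparison between genotypes. The KO H3K27ac list held 20036 peaks with a median width of 1237 bp and covered 31.4 Mb, while the WT list held 10078 peaks with a median of 333 bp and covered 4.71 Mb. MYC peaks numbered 8774 in WT and 22086 in KO, H3K4me3 peaks 15089 and 16019. The first ATAC lists of WT and KO were short (17303 and 19174 peaks), the second long (66531 and 72149), and those of KO MycHet lay between (47214 and 53722). Depth is unknown for all 12 lists, and no score was below 50. At the lower-coordinate end of Mtor, the targeted gene, 5 of 5 WT and 0 of 7 KO and KO MycHet libraries had a peak. Genes of the HSC transcription factor list had an ATAC peak at an end in 25 to 34 of 37 cases per library. Those of the HSC receptor list had one in 9 to 22 of 25. B cell genes had 0 to 6 of 15, with none at Pax5 and Rag2 in any library, T and NK genes 2 to 13 of 20 and olfactory receptors 6 to 28 of 1110. Lists tied to no lineage were open too, at 17 to 27 of 27 interferon response genes and 16 to 19 of 19 genes of JAK, STAT and feedback signalling. No share of all genes was computed beside these counts. Myeloid genes had 2 to 16 of 19, erythroid genes 3 to 13 of 17, megakaryocyte genes 5 to 14 of 16, and stromal and endothelial genes 2 to 9 of 13, in each case fewest in a library of the shorter lists. In bulk libraries, more cells that carry a mark and more of the mark per cell cannot be told apart.

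Most domains were only just clusters. Of the 274, 172 had 4 peaks, 65 had 5, 22 had 6 and 11 had 7, and the rest were 1 domain of 9 peaks, 2 of 10 and 1 of 15. The summed peak length had a median of 8004 bp and ran from 1624 to 30100 bp, and the domains spanned a median of 30.6 kb, from 6.57 to 99.8 kb. Peaks took up a median of 26.1% of a domain, and the gaps inside domains had a median of 6778 bp. Single peaks were wider inside domains than outside, with medians of 1572 and 1216 bp, while their scores were alike (107.4 and 104.3). The ranked lengths fell steeply over the first 4 domains and gently after that. Chromosome 17, which carries the major histocompatibility complex, held 26 domains, or 2.41 per 100 KO peaks, the X chromosome 2, or 0.447.

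**Figure D1:**
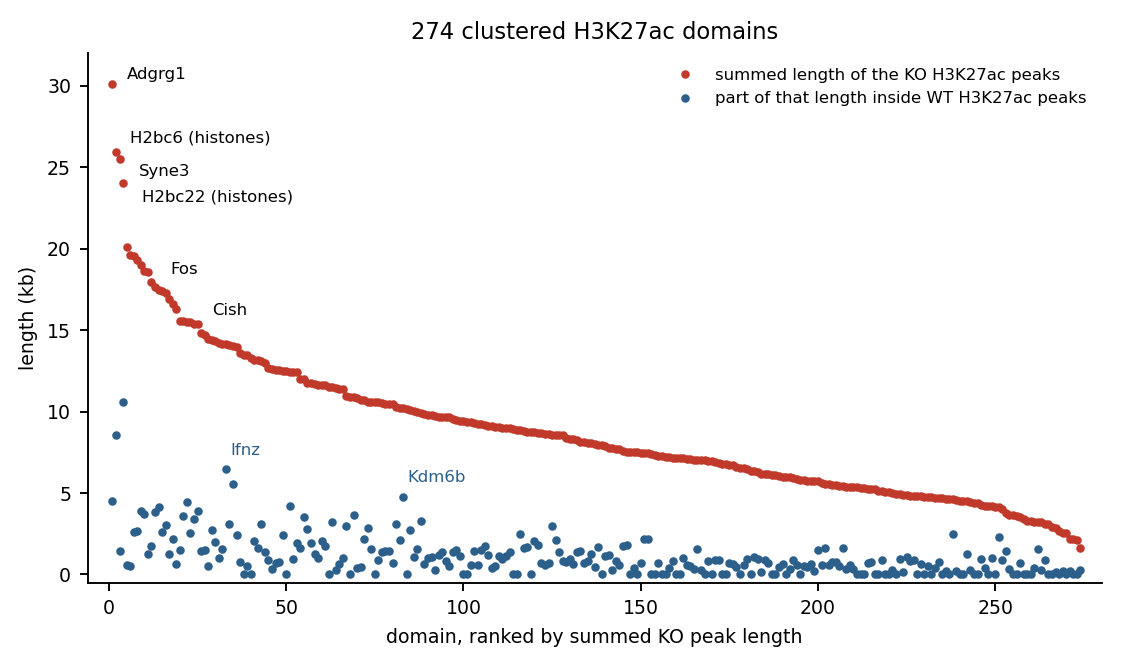
Each of the 274 domains is drawn at its rank by summed KO H3K27ac peak length (red, kb) with the part of that length that lay inside WT H3K27ac peaks (blue, kb). The Adgrg1 domain leads with 30100 bp, and the largest WT-covered lengths belong to the 2 longest histone domains, at 8566 and 10618 bp.

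The minimum of 4 peaks set apart regions that overlap widely in length. Just inside it, the largest domains of 4 peaks were at Hipk1 (19022 bp), Hnrnpf (17469 bp) and Rapgef2 (15550 bp). Just outside, the largest regions of 3 peaks were at Ino80d (14865 bp), Mob3a (14576 bp) and Dido1 (13442 bp). In all, 166 regions of 1 to 3 peaks were at least as long as the median domain, 85 of them with 3 peaks, 78 with 2 and 3 with 1.

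The longest domain lay over Adgrg1, an adhesion G protein-coupled receptor that is a surface marker of stem cells, and ran on over its neighbour Adgrg3 and the end of the ciliary gene Drc7 (chr8:94983204-95060344). It had 7 KO H3K27ac peaks, of which 5 met a WT H3K27ac peak, over 14.9% of the summed length. All 7 were open in ATAC WT 2, KO 2 and both KO MycHet libraries, 4 in WT 1 and 5 in KO 1. H3K4me3 stood at 2 places in either genotype. MYC peaks numbered 6 in WT and 3 in KO, so here WT had more.

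The next longest domains outside the histone clusters combined genes of the nuclear envelope, membrane lipids, kinases and chromatin. The Syne3 domain (chr12:104973454-105034472, 25495 bp in 7 peaks) overlapped part of the nesprin gene Syne3 and the start of Glrx5, which serves iron-sulfur cluster assembly. Only 1 of its peaks met a WT H3K27ac peak. The Sgms1 domain (chr19:32171538-32226936, 20085 bp in 6 peaks) lay wholly inside the sphingomyelin synthase gene, with no peak at a gene end. Its 6 peaks were open in WT 2 and KO 2, while WT 1 and KO 1 had 1 open peak each. A domain over Mapkapk2, Dyrk3 and Eif2d (19567 bp), a kinase of the p38 pathway, a second kinase and a translation factor, had 4 of 6 peaks at gene ends. The Tut1 and Ahnak domain (19295 bp) held 7 genes and had 5 of 7 peaks at gene ends. Hipk1, a nuclear kinase, and Ski, a corepressor of TGF-β signalling, headed domains of 19022 and 18613 bp.

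Replication-dependent histone genes, which supply histones during DNA replication and lie in tandem clusters, were the gene group most often inside domains. A domain overlapped 41 of 67 of them (61.2%, exact 95% confidence interval 48.5 to 72.9), beside 2.8% of all 21631 protein-coding genes (606) and 6.09% of the 8556 genes with a KO H3K27ac peak at an end. Histone genes are short and densely packed, and a few peaks cover many of them. All 41 lay in 4 domains on chromosome 13. The H2bc6 domain (chr13:23529823-23587562) had 15 histone genes and 7 KO peaks, each at a gene end, and WT H3K27ac met 6 of the 7. The H2bc22 domain (chr13:21749584-21835621) had 13 histone genes and 9 KO peaks, of which 7 met WT H3K27ac over 44.2% of the length. The H1f2 domain (chr13:23737305-23763639) had 8 genes and 5 peaks, 4 of them with WT H3K27ac. At the fourth, H2ac12 (chr13:22020151-22051492, 5 genes), 2 of 5 peaks met WT H3K27ac. MYC peaks in WT and KO numbered 5 and 6 at H2bc6, 7 and 8 at H2bc22, 4 and 2 at H1f2, and 5 and 3 at H2ac12. With the KO MYC list shortened to its 8774 highest-scoring peaks, the length of the WT list, KO had 3, 6, 2 and 1, fewer than WT at each of the 4.

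Of 20 immediate early and AP-1 genes, 4 lay in a domain (20%, beside 2.8% of all and 6.09% of acetylated genes): Fos, Fosb, Btg2 and Nr4a1. The Fos domain (chr12:85452844-85499213) held no other protein-coding gene and had 5 KO peaks with 17986 bp, of which 1 was at a gene end and 2 met WT H3K27ac. Its 5 peaks were all open in WT 2, KO 2 and both KO MycHet libraries and 3 were open in WT 1 and in KO 1, and MYC had 2 peaks in each genotype. The Fosb domain (11607 bp) had 6 peaks, 3 of them with WT H3K27ac, and 1 MYC peak in WT against 3 in KO. Btg2, an antiproliferative gene, had 4 peaks over 8828 bp, and MYC had 3 peaks in WT and 2 in KO. The Nr4a1 domain (7389 bp), at an orphan nuclear receptor gene, had no WT H3K27ac. Its MYC peaks numbered 0 in WT and 2 in KO. At equal list length KO had 1 MYC peak at Fos, 1 at Fosb, 1 at Btg2 and 0 at Nr4a1. The RefSeq start of Nr4a1 whose promoter was searched lies just outside the domain, while the lower-coordinate end of the gene lies inside it.

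In the signalling lists, the genes inside domains were a pair of feedback inhibitors, a PI3K subunit and an S6 kinase. Of 19 genes of JAK, STAT and feedback signalling, Cish and Dusp1 were inside (10.5%, beside 2.8% of all and 6.09% of acetylated genes). Cish, a SOCS-family inhibitor that STAT5 induces, shared its domain (chr9:107278742-107324693, 15354 bp in 6 peaks) with Mapkapk3, and MYC had 2 peaks there in WT, 6 in KO and 3 in KO at equal list length. Dusp1, a phosphatase that switches off MAP kinases, was the only gene of its domain (chr17:26483946-26510299), where 3 of 4 peaks met WT H3K27ac. MYC had 1 peak there in WT, 2 in KO and 1 in KO at equal list length. Of 28 mTOR pathway genes, 2 were inside (7.14%, near the 6.09% of acetylated genes). Pik3r1, the regulatory subunit of PI3K, was alone in a domain of 18590 bp (chr13:101718242-101768811) with WT H3K27ac over 6.90%. Its MYC peaks numbered 2 in WT, 3 in KO and 0 in KO at equal list length. Rps6kb2, an S6 kinase that mTOR complex 1 activates, shared a domain of 7 genes. The interferon receptor genes Ifnar2 and Ifngr1 also had domains, named for other parts of the naming rule. At Ifnar2 (chr16:91352152-91380342) MYC had 2 peaks in WT, 6 in KO and 2 in KO at equal list length. At Ifngr1 (chr10:19561383-19594248) MYC had 1 peak in WT, 1 in KO and 0 in KO at equal list length. None of the 5 KO H3K27ac peaks at Ifngr1 met WT H3K27ac.

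The coactivator, interferon response, ribosomal protein, and T and NK lists also had genes inside. Of 20 chromatin coactivator genes 3 were inside (15%, beside 2.8% of all and 6.09% of acetylated genes): Brd2, a reader of acetylated histones, Kmt2d, an enhancer methyltransferase, and Kdm6b, an H3K27 demethylase. The Kdm6b domain (chr11:69394151-69420082) was well covered in WT, at 46.9% of its length, and had 5 MYC peaks in each genotype, while Brd2 had 5.68% and Kmt2d 11.7%. Of 27 interferon response genes 4 were inside (14.8%, beside the same 2.8% and 6.09%), 3 of them in 1 domain. They were Irf3, and Tap1, Psmb8 and Psmb9 together, which make and carry peptides for MHC class I. The domain of the latter (chr17:34185599-34210932) had 5 KO peaks and no WT H3K27ac. Ribosomal protein genes had 4 of 80 inside (Rps18, Rpl10, Rpl36, Rpl23a), 5.00% beside the same 2.8% and 6.09%, and T and NK genes 1 of 20 (Cd247). No list was tested for enrichment, the lists are short, and with domains built without peaks at gene ends only 2 listed genes were inside in place of 61, 1 from the immediate early and 1 from the mTOR list.

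**Figure D2:**
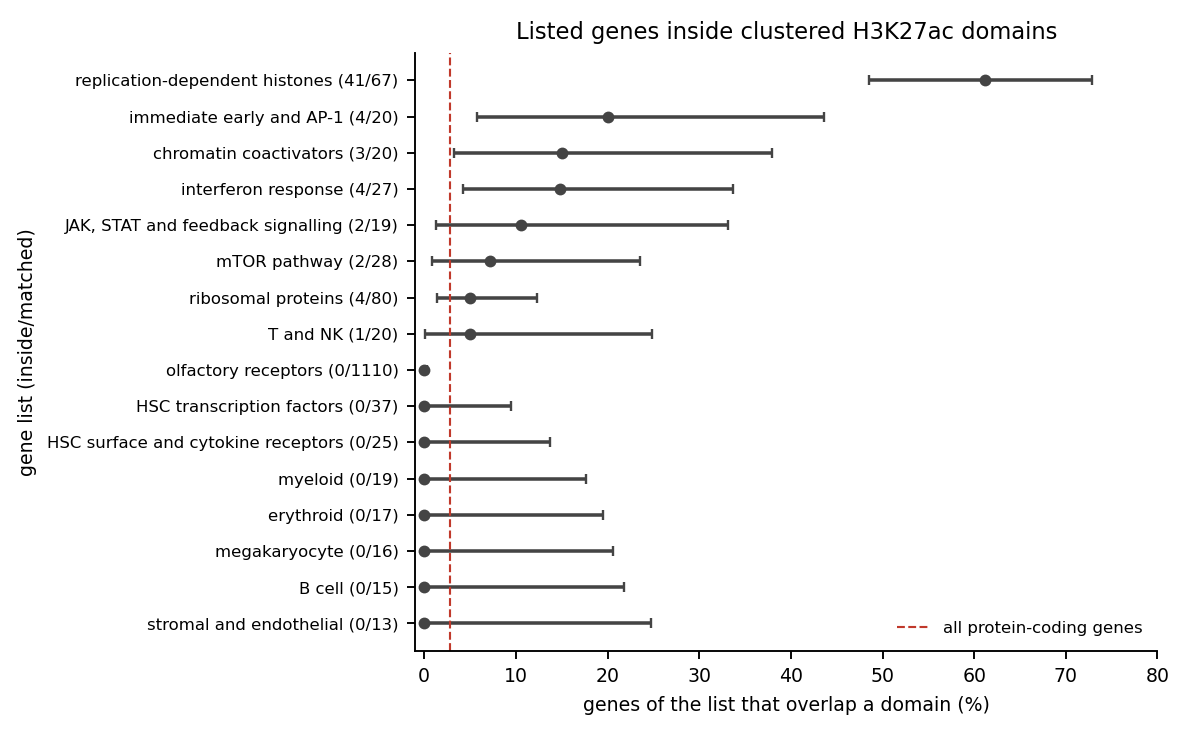
The share of each gene list that overlapped a domain is shown in percent with its exact 95% confidence interval, and the dashed line gives all protein-coding genes (2.8%). The histone list stands at 61.2%, and 8 lists had no gene inside a domain.

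No gene of 37 HSC transcription factors and of 25 HSC receptors lay in a domain, which at a background of 2.8% is near what the share of all genes gives. The lists of erythroid (17 genes), megakaryocyte (16), myeloid (19), B cell (15), and stromal and endothelial genes (13) also had none, nor did the 1110 olfactory receptors. Within 25 kb of a domain, where 4.39% of all genes lay, Epor and Elane were added. Most regulators were acetylated in KO, with few peaks or with peaks far apart. Of the 37 factors, 34 had a KO H3K27ac peak within the gene or 25 kb beside it and 13 had 4 or more, yet the most peaks in any joined region was 3 for 8 genes, 2 for 11 and 1 for 15. The like shares of all genes were not computed, so these counts are not shown to be particular to regulators. Foxp1 had 14 KO peaks with a median gap of 28.95 kb, and Runx1, a core factor of blood stem cells, had 7 peaks with a smallest gap of 20.7 kb. Hoxa9, with a median gap of 4.01 kb, and Lyl1, with 5.63 kb, had 3 peaks each. A domain of 4 peaks that overlapped no gene lay 38.25 kb from Runx1, its nearest protein-coding gene (chr16:92864328-92884648, rank 187), with no WT H3K27ac and MYC peaks numbering 0 in WT, 3 in KO and 0 in KO at equal list length. It was picked out after its values were seen, as were Hoxa9 and Lyl1. Mef2c had 4 peaks summing to 23108 bp over the gene and 25 kb on each side. Its largest joined region had 2 peaks and 9094 bp. With a gap of 25 kb there were 894 domains, and 8 of the 37 factors and 7 of the 25 receptors fell inside. The share of all genes was not computed at that gap, so the 2.8% is no background for these counts.

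Domains away from gene ends were common. Of the 274, 77 had no peak within 1 kb of an end of a protein-coding gene, 99 had under 25% of their peaks there, 36 overlapped no gene, and 34 lay wholly inside a gene. The longest without a gene lay 20.8 kb from Zfp217, a zinc finger gene (chr2:170172503-170222248, 19641 bp in 6 peaks). It had 1 peak with WT H3K27ac, 4 and 3 H3K4me3 peaks in WT and KO, and 0 and 2 MYC peaks. A domain 4.11 kb from Tex44 (chr1:86432157-86489531) had 7 peaks and 17311 bp. A domain 107 kb from Serp2 (chr14:76663885-76697136) had 4 peaks, each of which met WT H3K27ac, no H3K4me3 in either genotype, and 4 and 3 MYC peaks. A domain 31.0 kb from Lrrc74a (chr12:86799975-86837764) likewise had no H3K4me3, with 4 MYC peaks in each genotype. At equal list length KO had 1 MYC peak near Zfp217, 1 near Serp2 and 2 near Lrrc74a. At Ago2, the small RNA effector, a domain of 17398 bp had 1 of its 5 peaks at a gene end.

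As a set, domain peaks were not more distal than other KO peaks. A gene end lay within 1 kb of 37.1% of domain peaks (exact 95% interval 34.5 to 39.8) and of 38.3% of the 18770 peaks outside (37.6 to 39.0), and H3K4me3 of either genotype overlapped 52.2% (49.4 to 55.0) and 52.7% (52.0 to 53.4). Such intervals cover counting error only. H3K4me3 differed little between genotypes at the domains. A peak was present in 240 domains in WT and 244 in KO, in neither in 29, and the number of H3K4me3 peaks was equal in 214. H3K4me3 was found only in KO in 5 domains, among them Tex14 with 0 peaks in WT and 4 in KO, and only in WT in 1.

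WT H3K27ac covered a small part of most domains. Of the 1266 domain peaks, 400 (31.6%, interval 29.0 to 34.2) met a WT H3K27ac peak, beside a background of 24.4% of all KO peaks, and WT peaks covered 12.8% of the domains' peak length against 9.98% outside. Since the KO list chose the domains, no test was made of this difference. The share rose with peak width and domain peaks were wider. Among peaks below 1000 bp, 15.9% inside (12.2 to 20.2) and 10.5% outside (9.82 to 11.2) met WT H3K27ac. Among peaks of 1000 to 2000 bp, 24.1% inside (20.2 to 28.3) and 21.1% outside met WT H3K27ac. Among those of 2000 to 4000 bp 47.0% (41.9 to 52.1) and 44.8% did. From 4000 bp the share was lower inside, at 61.2% (50.9 to 70.9) beside 63.1% outside. The narrowness of the WT peaks limits the coverage that any domain can reach, and its part in these shares was not tested.

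Single domains ranged from none to more than 50% covered in WT. No peak met WT H3K27ac in 61 domains, 1 peak did in 101, and 4 or more did in 15. The longest domains with none were at Ifngr1, at Ppp3ca, a calcineurin catalytic subunit, at Parp8, at Fzr1, an activator of the anaphase-promoting complex, and at Trim28, a corepressor of transposable elements. All 4 peaks of the Trim28 domain were open in each of the 6 ATAC libraries. At Ifngr1, 1 of 5 peaks was open in WT 1 and 4 in WT 2, and at Ppp3ca 1 of 4 and 4. The most covered were the domains at Tex14 (55.9%), near Snx6 (53.6%), at Arl4d (47.9%), at Kdm6b (46.9%) and at Ifnz (45.9%). Of these, Tex14, Snx6 and Arl4d were short, with 4134, 4608 and 3240 bp of KO peaks.

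The same rule on the WT list gave 29 domains, of which 13 overlapped a KO domain. The Ifnz domain and 3 of the 4 histone domains, all but H2ac12, were among the shared ones. WT domains without a KO counterpart included those at Inpp5d, the SHIP1 phosphatase that opposes PI3K (4 WT peaks, 4948 bp), and at Ensa and Mcl1, a survival gene (5 WT peaks, 4218 bp), each with 2 KO peaks. One WT domain on chromosome 2 held no KO H3K27ac peak at all. The longest WT domain, on chromosome 9 (chr9:2999983-3036498), had 9 WT and 4 KO peaks and no gene. No list of artefact-prone regions was applied, so this domain may be an artefact of mapping, which was not tested.

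Open chromatin at the domains differed less between WT and KO than between the libraries of either genotype. In the first WT and KO libraries 49.1% (46.3 to 51.8) and 50.0% (47.2 to 52.8) of domain peaks overlapped an ATAC peak, in the second 87.1% (85.2 to 88.9) and 87.7% (85.7 to 89.4), and in KO MycHet 80.6% and 81.4%. The libraries of WT, and those of KO, thus differed by far more than WT and KO did, while those of KO MycHet were alike. The KO MycHet mean was 12.1 points above the KO mean, as 30.6 and -6.32 for the first and second libraries. A domain held on average 2.40 (first) and 4.83 (second library) ATAC peaks in WT, 2.50 and 5.38 for KO, and 4.19 and 4.56 for KO MycHet. The KO mean exceeded the WT mean by 0.325 peaks per domain (exact two-sided permutation p = 0.667 over 2 against 2 libraries, where the smallest possible p is 0.333), less than the spread between libraries of a genotype. The difference was 0.102 for the first and 0.547 for the second library of each genotype, and it was -0.106 when every list was shortened to its 17303 highest-scoring peaks. KO MycHet exceeded KO by 0.434 (exact p = 1), as 1.69 and -0.818 for the first and second libraries. The domains took 3.80% and 1.99% of the peaks of the WT libraries, 3.57% and 2.04% for KO, and 2.43% and 2.32% for KO MycHet.

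Set beside other KO H3K27ac peaks, domain peaks were open more often in the 4 longer lists and not in the 2 shorter ones. Outside domains the first WT and KO libraries gave 49.3% and 50.3%, the second 79.7% and 79.1%, and the KO MycHet libraries 74.1% and 74.9%. The mean difference over 6 libraries was 4.72 percentage points (exact two-sided sign-flip p = 0.125, higher in 4 of 6 libraries). The sign followed list length, at -0.250 for WT 1 and -0.304 for KO 1 and from 6.43 to 8.55 in the longer lists. No test had been planned here. All libraries were scored on the same peaks, so the p-value measures only the spread between these libraries. Peak width moved with this result. Among peaks of 1000 to 2000 bp, 47.0% inside (42.3 to 51.7) and 57.2% outside (56.0 to 58.5) were open in WT 1, and 90.4% (87.3 to 93.0) and 92.0% (91.3 to 92.7) in WT 2, so that at this width the shares inside were not the higher ones. Below 1000 bp they were higher, at 68.5% inside beside 58.7% outside for WT 2, 70.3% beside 57.5% for KO 2, and 60.6% beside 52.6% for KO MycHet 2.

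**Figure D3:**
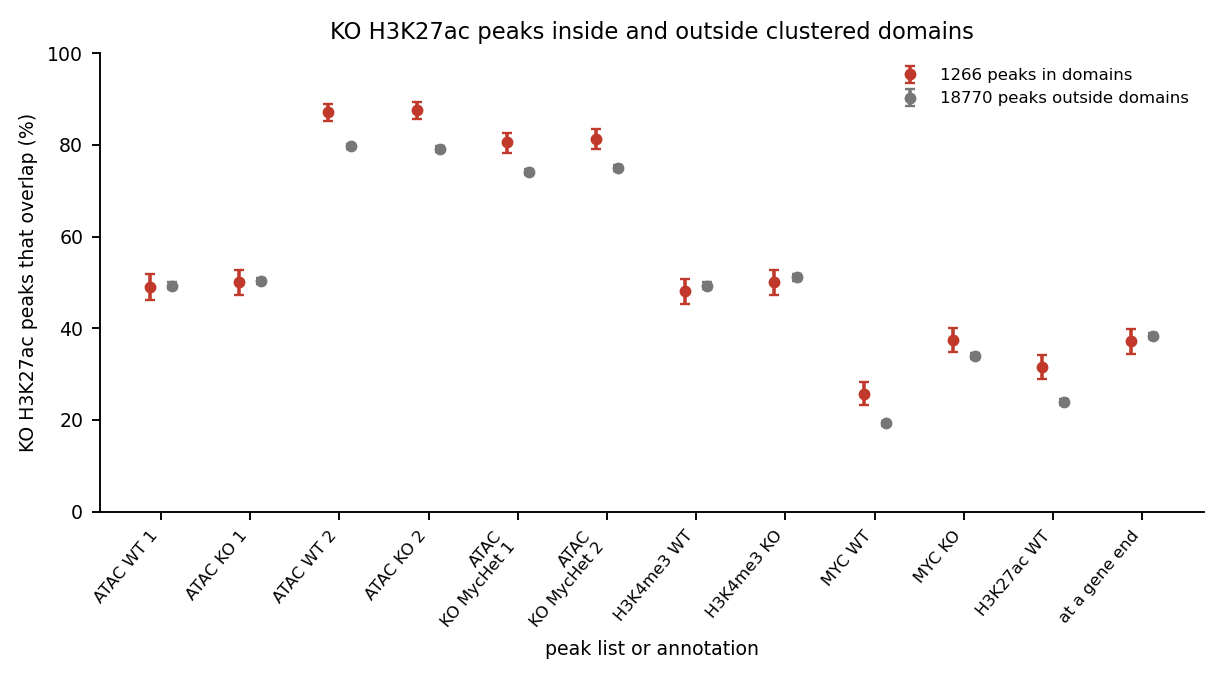
For 1266 KO H3K27ac peaks in domains (red) and 18770 outside (grey), points give the share in percent that overlap each peak list or a gene end, with exact 95% confidence intervals. WT and KO libraries of the same number stand side by side near 50% for the first and near 87% for the second ATAC library inside domains.

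Places open in only WT or only KO were about as rare in the domains as among all ATAC regions. Of 1472 merged ATAC regions in domains, 0 were open in both KO and neither WT library (exact 95% upper bound 0.25%), beside 0.175% of all 85640 regions, and 2 were open in both WT and neither KO library, beside 0.132%. Both counts are near those backgrounds. The pair lay at Vps45, a gene of vesicle fusion (chr3:96044290-96045192), and near Uvrag, a gene of autophagy (chr7:99154911-99156448). The Vps45 place was open again in both KO MycHet libraries and had MYC in WT and KO. In all 6 libraries 521 regions (35.4%) were open, beside 14.7% of all regions. That reading depends on the regions set against it, since 40.8% of domain H3K27ac peaks and 42.5% of those outside were open in all 6.

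MYC was found in more domains in KO than in WT, and the KO list was also the longer. A MYC peak lay in 191 domains in WT (69.7%, 63.9 to 75.1) and in 239 in KO (87.2%, 82.7 to 90.9), in both in 178, only in KO in 61, only in WT in 13 and in neither in 22. KO had more MYC peaks than WT in 153 domains, fewer in 45 and as many in 76. The domains held 373 WT and 562 KO MYC peaks, a ratio of 1.51, while the whole lists had a ratio of 2.52. The domains thus took 4.25% of the WT list (3.84 to 4.70) and 2.54% of the KO list (2.34 to 2.76). When the KO list was shortened to its 8774 highest-scoring peaks, the length of the WT list, the order turned: KO had 283 peaks in the domains against 373, more than WT in 59 domains and fewer in 103, and a MYC peak in 176 domains. There is no replicate of these MYC libraries, so neither order could be tested.

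**Figure D4:**
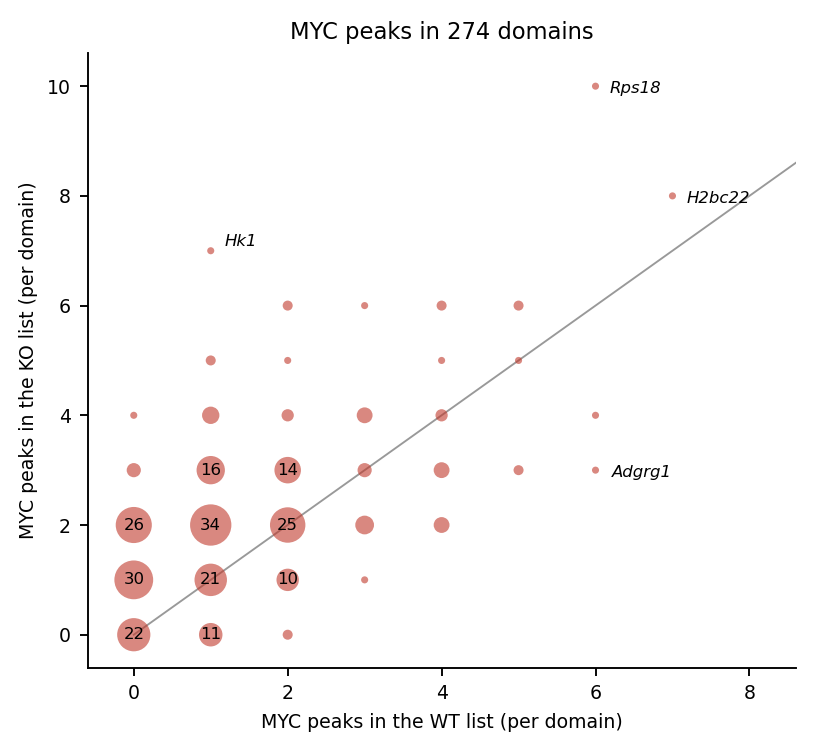
Each circle places domains by their number of MYC peaks in the WT list (x axis) and in the KO list (y axis), with an area that grows with the number of domains, printed from 10 upwards, and a line of equality. More domains lie above the line (153) than below it (45), Hk1 and Rps18 stand far above, and Adgrg1 lies below. At equal list length the counts above and below are 59 and 103.

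In the domains, 92.2% of WT (89.0 to 94.7) and 87.7% of KO MYC peaks (84.7 to 90.3) lay on a KO H3K27ac peak, where the rule places acetylated sequence, and 90.6% and 85.8% on an ATAC peak of any library. WT MYC peaks in domains overlapped a KO MYC peak in 67.6% of cases (62.5 to 72.3), beside 45.4% of all WT MYC peaks. By H3K27ac peak, MYC of WT met 25.7% of domain peaks, beside 19.7% of all KO peaks, and MYC of KO met 37.4%, beside 34.2%. These shares rose with peak width too. In KO the shares inside and outside were 30.3% and 24.7% below 1000 bp, and 31.6% and 32% from 1000 to 2000 bp. They were 44.9% and 48.7% from 2000 to 4000 bp, and 60.2% and 59.2% from 4000 bp. In WT the shares were higher inside in each width class. They were 18.2% and 13.9% below 1000 bp, and 20.7% and 16.3% from 1000 to 2000 bp. In the wider classes they were 33.0% and 28.6%, and 46.9% and 43.2%. No test was made of these differences.

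At most of the single domains named here, fewer KO MYC peaks remained when the KO list was cut to the length of the WT list. The domain over Daxx, Tapbp and Rps18 (chr17:33889307-33979922) had 10 H3K27ac peaks and 11 genes, and MYC peaks numbered 6 in WT and 10 in KO, of which 1 was among the highest-scoring KO peaks. At Hk1, the hexokinase that starts glycolysis, the domain lay wholly inside the gene (chr10:62288009-62341457), and MYC had 1 peak in WT and 7 in KO, or 2 in KO at equal length. Only 1 of its 6 KO H3K27ac peaks met WT H3K27ac, while all 6 were open in both WT 2 and KO 2. The Septin1 domain had 3 in WT, 6 in KO and 4 at equal length. The Tut1 domain had 4, 6 and 3, and the Dhx16 domain, at a splicing helicase gene, had the same numbers. At Ppp3ca WT had 0 and KO 4, or 1 at equal length. Adgrg1 kept all 3 of its KO peaks, and Snx6 all 6, beside 6 and 5 in WT.

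The domain with the most peaks was a tandem array at Ifnz (chr4:88756760-88806362), named after an interferon zeta gene. It had 15 KO H3K27ac peaks of 672 to 1265 bp, whose starts stood a median of 2913 bp apart, and 14 genes, most of them unnamed copies. All 15 were open in each of the 6 ATAC libraries, 11 met WT H3K27ac, H3K4me3 had 14 peaks in WT and 15 in KO, and MYC had 0 and 1. The 14 RefSeq promoters had 9 distinct upstream sequences, and 8 had an identical copy, among them the sets of Ifnz and Gm13272 named above. Reads from near-identical copies cannot be assigned to 1 of them, and how the authors placed such reads is not given in the sources used here, so the number of marked copies is uncertain. Without this domain and the 4 with histone genes, 269 domains remained, in which 30.2% of peaks met WT H3K27ac.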

How the data were processed

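Peak lists of 12 libraries were analysed, and each list held the peaks of 1 library. The authors deposited a score for each peak without naming its scale, so it served only to rank peaks within a list. Per the submitters' processing notes, the build was mm10 and CASAVA was used. Not given in the sources used here are the aligner, peak caller, any input control, and how ATAC-seq reads were treated. Peaks on Y were left out, and no list of artefact-prone regions was applied. Peaks were joined with Python 3.11.15 and numpy 2.4.6, an overlap was at least 1 bp, and joining and overlaps were tested on simulated peaks and checked against bedtools 2.31.1. Gene positions came from RefSeq on GRCm38.p6, the assembly also called mm10, without strand, so a gene end is a window of 1 kb around either end. A promoter sequence was found for 17274 of 21631 protein-coding genes. Motifs had been planned for ATAC windows too, and were searched at promoters only, since no genome was used. Histone genes were matched through their older symbols. Merged ATAC regions numbered 85640.

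The domains named are the 12 longest, the 10 with most KO MYC peaks, the 8 longest without a gene, the 8 longest with under 25% of peaks at gene ends, up to 4 per gene list, the 5 most and 5 least covered in WT, those with an ATAC region open in 1 genotype only, and 3 on each side of the minimum. A domain is called by a listed gene, else the gene with most bp inside, else the nearest gene end. The results of some of these are not reported here. The members and the 16 gene lists were chosen with earlier results of these data known. No source says whether ATAC libraries of 1 genotype came from separate mice, so the exact permutation tests (scipy 1.17.1) measure only the spread between these libraries. Alternatives covered the gap, the number of peaks, equal list lengths, the overlap required and left-out libraries. Depth is unknown.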

Additional observations from a re-analysis of the deposited data

How the results depend on the processing

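The number of domains depends on how they are built. In place of 274 there were 9 with a gap of 5 kb, 894 with a gap of 25 kb, 884 with 3 or more peaks, 102 with 5 or more, 41 from as many of the highest-scoring KO peaks as WT had, 96 without peaks at gene ends, and 29 by the same rule on the WT list. WT H3K27ac covered 12.8% of the peak length, 16.1% with a gap of 5 kb and 21.6% with the highest-scoring KO peaks, and 11.3% to 13.8% under the other 4 constructions. When at least 50% of a KO peak had to be covered, the share of peaks with WT H3K27ac fell from 31.6% to 5.53%. By that measure, the open share of domain peaks was 9.08% and 62.9% in ATAC WT 1 and WT 2, 8.53% and 47.8% in KO 1 and KO 2, and 61.1% and 47.8% in KO MycHet 1 and 2.

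The KO minus WT difference in ATAC peaks per domain, 0.325, ran from -1.11 to 1.76 when 1 library was left out, and turned negative without WT 1 (-0.891) and without KO 2 (-1.11). It was -0.106 with equal list lengths. No paired analysis was possible because only 1 number is carried by the labels of both genotypes. The libraries of like number, taken as a replicate block of 1 pair each, gave 0.102 and 0.547. Listed genes inside domains numbered 61, 2 without peaks at gene ends and 3 with a gap of 5 kb. Of the 12 longest domains, 2 were among the first 12 by summed score, 4 by number of peaks and 8 by span. Domains with MYC stayed within 1.5 times of the main count under the alternatives run. The gap of 25 kb for single lists, the width classes, the equal-length MYC counts of single domains, and leaving out the histone and Ifnz domains were added after the data were seen.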
